A study of Mus musculus with 9 samples.

Results

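Reprogramming of spermatogonial stem cells (SSC) to induced pluripotent stem cells (SSCiPSC) was followed here gene by gene, in 3 SSCiPSC and 3 SSC libraries, which are 6 of the 9 RNA-seq libraries of the series. The members were taken from the sample labels alone. Both groups carry the same 2 alleles, a reverse tetracycline transactivator at the Rosa26 site and a doxycycline-inducible cassette of Pou5f1, Sox2, Klf4 and Myc at Col1a1 (alleles Gt(ROSA)26Sortm1(rtTA*M2)Jae and Col1a1tm3(tetO-Pou5f1,-Sox2,-Klf4,-Myc)Jae). SSC were primary testis cells of mouse pups, left unattached by differential plating, sorted magnetically for the surface receptor Gfra1 and labelled as passage 0. SSCiPSC were lines grown from picked colonies, labelled as passage 10 to 11 and sorted for SSEA1 to reduce feeder cells. The study's methods give a later passage for the iPSC than the labels. The labels name LIF and doxycycline in the medium of both groups, whereas by the methods the drug had been withdrawn from the iPSC. Whether an SSC library pools several pups is not given in the sources used here, so p-values measure the spread between these libraries only, which may be partly technical. The other 3 libraries, iPSC from fetal fibroblasts (fiPSC), entered only the choice of 1 locus per gene and 1 alternative fit.

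The deposited values are FPKM, fragments scaled to transcript length and to the mapped fragments of the library, for loci assembled by the authors. The steps between the lowest values put the depth, in units of 1000000 fragments, at 1.77, 4.62 and 1.38 in SSC replicates 1, 2 and 3 and at 15.8, 13.7 and 15 in SSCiPSC replicates 1, 2 and 3, and every list of 3 values below keeps this order. Although sequenced less deeply, the SSC libraries listed more genes at 1 FPKM or above, 10602, 10608 and 10683 against 9844, 9668 and 9639. Depth moved with the group, and its part in the differences was not tested. Loci were named by position on the GRCm38 build, which gave 12666 protein-coding genes, and 10881 of them passed the filter on low values (1 FPKM or more in 3 or more of 6 libraries). Summed over all named genes, SSCiPSC held 1.52 times the FPKM of SSC (379175 ± 13696 against 248778 ± 11390.3, SD, n = 3 each). SSC replicate 3 stood apart from the other SSC libraries in transcripts of mast cells and other blood-derived cells. It was also highest in the summed FPKM of fibroblast genes (220.4, 207 and 524 in SSC), collagens (545, 435 and 749) and Leydig cell genes (419, 366 and 620). Several counts that rest on such transcripts are also given without SSC replicate 3.

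SSC are the germ cells of the testis that renew themselves and feed spermatogenesis. They respond to GDNF, a growth factor from the surrounding Sertoli cells, through the receptor pair Gfra1 and Ret, and hold back differentiation with factors such as Zbtb16. Mouse pluripotent cells are kept by a network around Pou5f1, Sox2, Nanog and Esrrb, divide with a short G1 phase, and are known for a high rate of glycolysis. The testis cells among which SSC live include Sertoli cells, steroid-producing Leydig cells, peritubular myoid cells, macrophages and mast cells.

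The first question was how far the whole transcriptome moved. Of 10881 genes tested, 3688 rose in SSCiPSC (33.9%) and 3113 fell (28.6%), 62.5% in all, with a limma p under 0.05 after Benjamini-Hochberg adjustment, which is what "rose" and "fell" mean throughout. For 72.9% of the genes tested the SSC and SSCiPSC values did not overlap, 40.1% higher in SSCiPSC and 32.9% lower, and the smallest two-sided p that exact permutation of 3 against 3 libraries allows for 1 gene is 0.1. Fold changes are given on the log2(FPKM + 1) scale, where changes of low genes come out too small. Large falls outnumbered large rises. At a log2 fold change of 3 or more, 241 genes rose and 455 fell, although at 1 or more the counts were 2627 and 2427. In addition, 91 genes that fell were listed at 0 in every SSCiPSC library, and 48 that rose were listed at 0 in every SSC library. The median log2 fold change of all genes tested was 0.15. It fell by 0.17 with quantile normalization and by 0.14 with median-ratio scaling, so modest rises shared by many genes depend on the scaling. The filter bears on the counts in both directions. Of the genes tested, 1015 were below 1 FPKM in every SSCiPSC library and so passed the filter through SSC alone, and 270 were below it in every SSC library and passed through SSCiPSC alone. Such a gene could hardly do other than differ, so any p-value given below for one is a description and not support. The other 9596 genes reached 1 FPKM in at least 1 library of each group, termed found in both groups below. Of these 35.7% rose and 22.1% fell. Where 20% or more of a group passed through 1 side alone, its counts over the genes found in both groups follow, to be read beside these shares, and the full counts are a description. For each group below, the counts under quantile normalization are given where the larger of its counts moved by over 1.5 times. Without SSC replicate 3, 3486 genes rose and 3036 fell. In every gene named below as having risen or fallen, SSC and SSCiPSC values did not overlap (191 of 191 genes). The loci of Ctsa, Dusp27, Egfl7, Foxh1, Itgae, Slc7a6os and Sox15 also cover another gene, to which their value may belong.

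**Figure D1:**
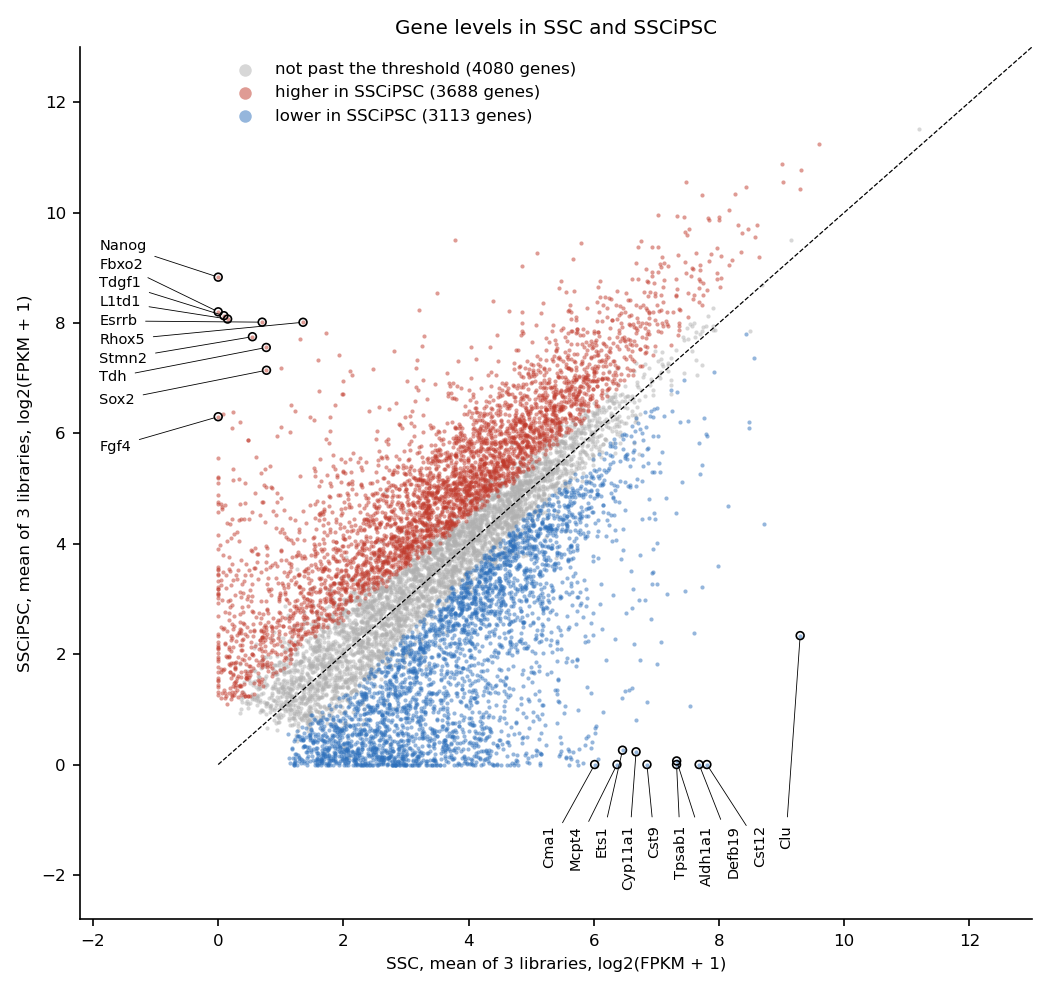
Mean level of each of the 10881 genes tested in SSC (x axis) and SSCiPSC (y axis), both as log2(FPKM + 1), with 1 point per gene and colours for genes that rose, fell or did not pass the threshold. The 10 genes with the largest rise and the 10 with the largest fall are labelled and lie where the other group is close to 0, except Clu, which keeps a low level in SSCiPSC.

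The largest rises were led by 4 genes that are nearly absent from SSC, Nanog, Fbxo2, Tdgf1 and L1td1. Next came Esrrb, the nuclear receptor of the naive pluripotent state, with 0.486, 0.689 and 0.716 FPKM in SSC and 221, 298 and 259.8 FPKM in SSCiPSC, a rise of 7.31 on the log2 scale (SE 0.17, limma adjusted p = 6.8e-06). Stmn2, which encodes a microtubule-destabilizing protein best known from neurons, had 0.674, 0 and 0.862 FPKM in SSC and 205, 222 and 217 FPKM in SSCiPSC (log2 rise 7.2, standard error 0.26). Tdh, the enzyme that breaks down threonine in mouse embryonic stem cells, rose from 0.721, 0.964 and 0.46 FPKM to 141, 285 and 164 FPKM, a log2 rise of 6.79 (standard error 0.29). In these genes SSC stayed below 1 FPKM in every library, and the groups lay far apart. Rhox5, a homeobox gene of the X chromosome that is expressed in Sertoli cells and in embryonic stem cells, rose from 1.03, 1.77 and 1.98 FPKM to 296, 211 and 272 FPKM (log2 rise 6.66, standard error 0.21). Sox2 rose from 0.933, 0.50 and 0.715 FPKM to 125, 169 and 131 FPKM, a log2 rise of 6.37 (standard error 0.19). Fgf4, a growth factor that acts on pluripotent cells themselves, was listed at 0 in every SSC library and at 92.9, 63.1 and 80.6 FPKM in SSCiPSC (limma adjusted p = 2.33e-05).

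The largest falls were not those of germ cell genes. Of the 10, Cst12, Cst9, Defb19 and Clu stand in the list of Sertoli cell markers, Tpsab1, Mcpt4 and Cma1 in that of mast cells, and Cyp11a1, which makes the first steroid from cholesterol, in that of Leydig cells. Cst9, which encodes a secreted cystatin, had 129, 143 and 81 FPKM in SSC and was listed at 0 in every SSCiPSC library (limma adjusted p = 2.95e-05). Mcpt4 and Cma1 encode mast cell chymases. Mcpt4 had 24.7, 99.8 and 218 FPKM and Cma1 15.5, 75.8 and 212 FPKM in SSC, and both were listed at 0 in SSCiPSC (limma adjusted p = 0.000704 and 0.00166). Both were highest in SSC replicate 3 and lowest in SSC replicate 1. Ets1, a transcription factor of many mesodermal and blood lineages, had 87.5, 78.7 and 95.5 FPKM in SSC with little spread and 0.103, 0.225 and 0.271 FPKM in SSCiPSC, a fall of 6.20 on the log2 scale (SE 0.18, limma adjusted p = 1.43e-05). The tenth is Aldh1a1, an enzyme that makes retinoic acid. All 20 genes passed the threshold in the same direction in each of the 20 alternative analyses. They were chosen for large changes with the groups apart, so this is a description and not support.

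**Figure D2:**
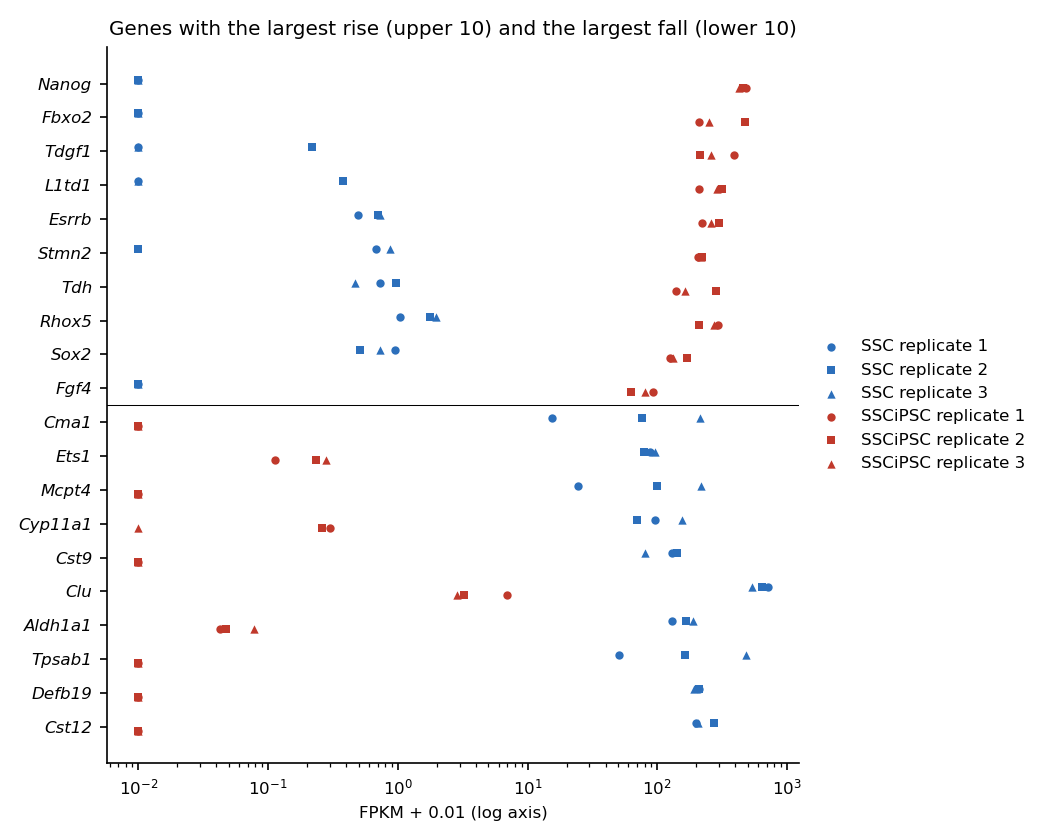
FPKM of the 10 genes with the largest rise and the 10 with the largest fall in each of the 6 libraries, on a log axis of FPKM + 0.01 with 1 point per library, which coincide at 0.01 where a gene is listed at 0. The 6 points of a gene form 2 groups that do not overlap, and among the falling genes Tpsab1, Mcpt4 and Cma1 have the widest spread over the SSC libraries.

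Promoter sequence is shown for 3 of these 20 genes as the nearest regulatory sequence to the change, 250 bases before to 50 bases after a start site, from RefSeq on GRCm38, 5′ to 3′. Of the 20 genes, 14 have a promoter in the RefSeq table used. Capitals mark matches, on either strand, to the octamer word ATGCAAAT, to ACAAAG or ACAATG (words read by SOX proteins), to CAAGGTCA (a word of Nr5a1) or to CACGTG (an E-box). The first is from Nanog (chr6:122707239-122707538, plus strand), the second from Sox2 (chr3:34649745-34650044, plus strand) and the third from the downstream start site of Aldh1a1 (chr19:20601718-20602017, plus strand).
Nanog: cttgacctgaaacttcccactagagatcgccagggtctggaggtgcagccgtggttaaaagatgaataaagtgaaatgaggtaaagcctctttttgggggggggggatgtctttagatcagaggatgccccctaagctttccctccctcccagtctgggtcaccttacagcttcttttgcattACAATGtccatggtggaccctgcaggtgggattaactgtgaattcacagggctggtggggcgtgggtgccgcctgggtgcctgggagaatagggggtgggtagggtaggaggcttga
Sox2: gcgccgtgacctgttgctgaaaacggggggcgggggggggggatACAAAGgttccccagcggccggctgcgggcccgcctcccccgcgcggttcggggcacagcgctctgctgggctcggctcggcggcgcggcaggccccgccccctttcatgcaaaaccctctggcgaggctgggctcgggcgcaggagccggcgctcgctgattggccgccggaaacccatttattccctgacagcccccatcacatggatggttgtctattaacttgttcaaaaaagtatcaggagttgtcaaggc
Aldh1a1: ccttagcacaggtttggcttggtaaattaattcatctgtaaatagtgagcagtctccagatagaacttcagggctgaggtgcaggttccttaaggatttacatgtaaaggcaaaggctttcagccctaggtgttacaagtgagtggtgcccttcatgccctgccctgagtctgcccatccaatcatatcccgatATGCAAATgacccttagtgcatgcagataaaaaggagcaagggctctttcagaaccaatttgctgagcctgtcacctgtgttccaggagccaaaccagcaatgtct
A SOX word stands in the promoters of Nanog and Sox2, and the octamer in that of Aldh1a1, a gene that fell. Over the table, 28.6% of 32851 promoters hold a SOX word, against 4 of the 10 promoters of the rising genes (those of Esrrb, Nanog and Sox2) and 3 of the 8 promoters of the falling genes (those of Aldh1a1, Cst9 and Mcpt4). The Nanog promoters overlap and share the same word, which is thus counted more than once. By gene, a SOX word is found in 3 of 8 rising and 3 of 6 falling genes. The exact octamer is in 1.74% of promoters, in 0 of the 10 promoters of the rising genes and in 1 of the 8 of the falling genes. Only exact words were counted. The stretch ttttgcat beside the SOX word of Nanog and the stretch atgcaaaa of Sox2 each differ from the octamer by 1 base, read on either strand. Such near matches were not counted, so a count of 0 does not show that a site is lacking. The Nr5a1 word (1.56% of promoters) and the E-box (7.15%) are in none of these promoters. A match of letters is a description and does not show binding.

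The pluripotency network was compared next, to see which of its genes the SSCiPSC had gained. Of 36 listed genes, 31 had a locus, and of these 30 rose, with a median log2 fold change of 4.06. Since 12 of the 31 passed the filter through SSCiPSC alone, the count is not read as support (18 rose and 0 fell of the 19 found in both groups, beside 35.7% of all such genes rising, with a median of 2.66). Trim71 did not pass, with 37.6, 40.8 and 30.05 FPKM in SSC and 43.1, 85.5 and 59.2 FPKM in SSCiPSC (limma adjusted p = 0.059), but passed in 5 of 20 alternatives, with 0.73 on the log2 scale and a limma adjusted p of 0.0214 with 1 locus per gene in the fit. Of the 4 reprogramming factors, Pou5f1 was present at a low level in SSC, with 16.2, 12.4 and 10.4 FPKM, and had 658, 877 and 665 FPKM in SSCiPSC, a rise of 5.72 on the log2 scale (SE 0.20, limma adjusted p = 2.57e-05). Klf4 was already abundant in SSC, at 37.7, 43.9 and 51 FPKM, and rose by 1.01 on the log2 scale, to 80.2, 79.9 and 110.3 FPKM (standard error 0.19), but did not pass under quantile normalization (limma adjusted p = 0.177). Myc, in contrast, fell by 3.0, from 55.6, 49.1 and 69.3 FPKM to 2.81, 19 and 4.11 FPKM (standard error 0.60, limma adjusted p = 0.00665), with the highest SSCiPSC value in replicate 2. Reads from the inducible cassette and from the endogenous genes cannot be told apart in these values.

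Genes of spermatogonia and the germ line were compared next. All 35 with a locus, of 39 listed, were tested, and 26 fell and 5 rose, with a median log2 fold change of -2.07. Of these genes 9 passed the filter through SSC alone (5 rose and 17 fell of the 26 found in both groups, beside 22.1% of all such genes falling, with a median of -1.71). Gfra1, the receptor used for the sort, had 37.7, 34.1 and 23.9 FPKM in SSC and 0.171, 0.125 and 0.0652 FPKM in SSCiPSC, a fall of 4.85 on the log2 scale (SE 0.25). Gfra1 was the basis of the sort and passed the filter through SSC alone, so its fall is a description. Its partner Ret, which carries the GDNF signal into the cell, fell by 5.36, from 51, 52.8 and 40.3 FPKM to 0.177, 0.19 and 0.203 FPKM. Zbtb16, the repressor that maintains undifferentiated spermatogonia, fell by 5.97, from 72, 77.4 and 51.9 FPKM to 0.0294, 0.157 and 0.0308 FPKM. Of these 3 genes SSCiPSC kept only traces, below 1 FPKM in every library. The 5 genes that rose were Upp1, Etv5, Eomes, Kit and Sohlh2. Of these, Kit, the receptor of stem cell factor, and Sohlh2 mark spermatogonia that have begun to differentiate, and Eomes had a call lost in 5 of the 6 fits without 1 library and in 8 of 19 alternatives in all, with a limma adjusted p of up to 0.119. Upp1, uridine phosphorylase, rose by 5.04, from 10.1, 12.2 and 8.84 FPKM to 458, 303 and 372 FPKM, and made up 42.4% of the summed FPKM of the germ line list in SSCiPSC. Etv5, a transcription factor downstream of GDNF and FGF signals, rose by 1.87, from 38.8, 30.7 and 28.9 FPKM to 103, 143 and 123 FPKM.

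Meiotic genes were mixed. Of 20 tested, 6 rose and 8 fell. Sycp2, a protein of the synaptonemal complex that pairs chromosomes, fell by 4.59, from 44.8, 40.1 and 51.1 FPKM to 0.352, 1.01 and 1.59 FPKM, whereas Stag3, a meiotic cohesin, had 47.8, 60.1 and 39.3 FPKM in SSC and 38.5, 27.2 and 45 FPKM in SSCiPSC, which overlapped (limma adjusted p = 0.203), but passed in 1 of 20 alternatives, with -0.92 on the log2 scale and a limma adjusted p of 0.0182 under quantile normalization. Of 9 Tudor and Piwi genes, most of which act in the defence of the germ line against transposons by piRNA, 7 fell and 1 rose (1 rose and 2 fell of the 4 found in both groups). Tdrd1 fell by 4.44, from 27.9, 37.1 and 25 FPKM to 0.505, 0.34 and 0.40 FPKM. Tdrd12 rose by 1.24, from 12.7, 17.8 and 9.37 FPKM to 27.9, 36.5 and 31.3 FPKM.

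Markers of other testis cells were read to check the label of the SSC libraries, and they were present there at high levels. In bulk libraries fewer cells of a type and less RNA per cell cannot be told apart, and the part of these cells in the other differences below was not tested. Of 25 Sertoli cell markers 23 had a locus, and their FPKM summed to 1748, 1838 and 1459 in SSC and to 338, 257 and 308 in SSCiPSC. The germ line list of 35 genes summed to 1369.9, 1654 and 1132 FPKM in the same SSC libraries, below the Sertoli sum in each, with Dazl as its most abundant gene. Of the 20 Sertoli markers tested, 17 fell and 1, Rhox5, rose (1 rose and 5 fell of the 8 found in both groups). The most abundant in SSC was Clu, and in SSCiPSC Rhox5, which made up 86.3% of the sum, while Cst12, Cst9, Defb19, Etd, Fshr and Rhox8 were listed at 0 in every SSCiPSC library. Sox9, the transcription factor that sets Sertoli cell identity, fell by 4.93, from 30.5, 28 and 32.1 FPKM to 0.0371, 0 and 0.0283 FPKM. Dhh, the ligand by which Sertoli cells signal to Leydig cells, fell by 3.65, from 14.7, 13.3 and 9.78 FPKM to 0.131, 0.0753 and 0 FPKM. Inhbb, an inhibin and activin subunit, had 15.9, 13.3 and 15.7 FPKM in SSC and 18.9, 25 and 18.8 FPKM in SSCiPSC and did not pass (limma adjusted p = 0.0763), but passed in 3 of 20 alternatives, with 0.45 on the log2 scale and a limma adjusted p of 0.029 with all 9 libraries in the fit.

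Of 12 Leydig cell genes with a locus (16 listed), 10 fell and 0 rose in limma's test (at an unadjusted p below 0.05, 0 rose, and without SSC replicate 3, 1 rose), and 0 rose and 4 fell of the 6 found in both groups. Their sums were 419, 366 and 620.3 FPKM in SSC and 83.4, 73.8 and 80.001 FPKM in SSCiPSC. The most abundant were Fdx1 in SSC and Tspo in SSCiPSC, and Lhcgr and Nr5a1 were listed at 0 in SSCiPSC. Hsd17b3, which makes testosterone, fell by 4.28, from 11.5, 30.5 and 32.2 FPKM to 0.183, 0.491 and 0 FPKM. Tspo, a mitochondrial protein found in many cells, had 11.6, 10.4 and 26.9 FPKM in SSC and 29, 14.9 and 23.5 FPKM in SSCiPSC, which overlapped (limma adjusted p = 0.336, or 0.0468 without SSC replicate 3). Of 6 peritubular myoid and smooth muscle genes with a locus (11 listed), 4 fell (0 rose and 2 fell of the 4 found in both groups), and their sums were 132, 117 and 106 FPKM and 13.9, 14.3 and 10.4 FPKM. Acta2, smooth muscle actin and the most abundant of them in SSC, fell by 3.63, from 68.1, 65.5 and 53.9 FPKM to 3.63, 4.42 and 4.24 FPKM. Myh11, smooth muscle myosin, had 12.4, 8.67 and 10.2 FPKM in SSC and was listed at 0 in SSCiPSC.

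Blood-derived cells separated the SSC libraries. The 8 mast cell markers with a locus (12 listed) summed to 124, 458 and 1313 FPKM in SSC and to 1.02, 0.492 and 0.325 FPKM in SSCiPSC, so SSC replicate 3 held the most. Tpsab1 was the most abundant in SSC and Srgn in SSCiPSC, and Cma1, Mcpt2, Mcpt4, Tpsab1 and Tpsb2 were listed at 0 in every SSCiPSC library. All 8 were below 1 FPKM in every SSCiPSC library and were tested through SSC alone, so no count of falls is given for them. The 13 macrophage markers with a locus (18 listed) summed to 97.6, 49.8 and 352 FPKM in SSC and 28.7, 29.2 and 30.4 FPKM in SSCiPSC, and 11 of the 13 were below 1 FPKM in every SSCiPSC library. C1qa, a complement subunit made by macrophages and the most abundant of the list in SSC, fell by 3.58, from 15.8, 4.61 and 51.1 FPKM to 0.142, 0.324 and 0.883 FPKM. Laptm5, a lysosomal membrane protein of blood cells and the most abundant in SSCiPSC, had 4.17, 3.19 and 16.8 FPKM in SSC and 12.6, 19.5 and 15.5 FPKM in SSCiPSC and did not pass (limma adjusted p = 0.118), but passed in 2 of 20 alternatives, with 1.84 on the log2 scale and a limma adjusted p of 0.00259 without SSC replicate 3. The 6 blood markers with a locus summed to 23.1, 31.4 and 269 FPKM in SSC and 4.34, 2.48 and 2.71 FPKM in SSCiPSC. S100a8, a neutrophil calcium-binding protein, had 6.86, 15.1 and 114 FPKM in SSC and was listed at 0 in SSCiPSC.

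The summed FPKM of the fibroblast and of the endothelial list overlapped between the groups. The 17 fibroblast and interstitial genes summed to 220.4, 207 and 524 FPKM in SSC and 177, 221 and 279.6 FPKM in SSCiPSC, where Fn1 made up 71.3% of the sum and Tcf21 was listed at 0. As a share of the FPKM of all named genes, however, the fibroblast list lay apart, at 0.0924, 0.0792 and 0.212% in SSC and 0.0476, 0.0559 and 0.0756% in SSCiPSC. Of these genes 10 fell and 2, Fn1 and Fbln1, rose (11 fell without SSC replicate 3), Fbln1 with a call lost in 2 of the 6 fits without 1 library and in 4 of 20 alternatives in all, with a limma adjusted p of up to 0.0925. Col6a1, a collagen VI chain and the most abundant in SSC, fell by 3.88, from 20.3, 35.1 and 104 FPKM to 1.86, 1.02 and 3.37 FPKM. Fn1, fibronectin, rose by 2.37, from 26.8, 26.9 and 36.2 FPKM to 118, 170.3 and 195 FPKM. The 12 endothelial markers summed to 156, 80.5 and 140.3 FPKM and 153, 118 and 128 FPKM, with Pecam1 the most abundant in both groups and Emcn listed at 0 in SSCiPSC, and as a share of all named genes they overlapped too. Here 7 fell and 2, Pecam1 and Egfl7, rose. Of the 7 found in both groups 2 rose and 2 fell, near the 35.7% and 22.1% of all such genes. Cdh5, the cadherin of endothelial junctions, fell by 4.36, from 22.2, 12.6 and 27.2 FPKM to 0.034, 0 and 0 FPKM, while Pecam1, a surface protein also found on mouse embryonic stem cells, rose by 1.29, from 54.6, 26.6 and 44.1 FPKM to 125, 79.6 and 98.3 FPKM, but did not pass under quantile normalization (limma adjusted p = 0.194).

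**Figure D3:**
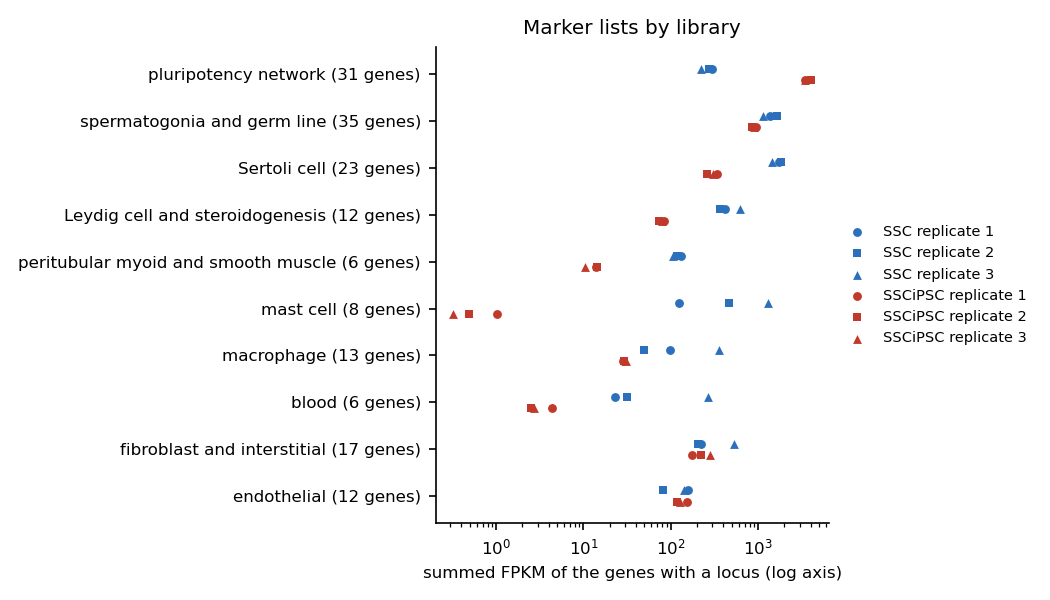
Summed FPKM of the marker lists of pluripotent, germ line and other cell types in each of the 6 libraries, on a log axis with 1 point per library. The pluripotency sum is higher in every SSCiPSC library, the mast, macrophage, blood, Sertoli, Leydig and peritubular sums are higher in every SSC library, and the fibroblast and endothelial sums overlap.

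The main classical cadherins moved in opposite directions. Cdh2, the cadherin of mesenchymal, neural and Sertoli cells, fell by 5.51 on the log2 scale, from 64, 54.1 and 53.4 FPKM to 0.298, 0.429 and 0.116 FPKM (standard error 0.20), and passed the filter through SSC alone. Cdh1, the cadherin of epithelia and of pluripotent colonies, rose by 3.43, from 13.6, 7.92 and 9.32 FPKM to 88.6, 132 and 141 FPKM (standard error 0.26, limma adjusted p = 0.000194). Of 12 mesenchymal regulators tested, 9 fell and 0 rose in limma's test (at an unadjusted p below 0.05, 0 rose), and 0 rose and 3 fell of the 6 found in both groups. Zeb2, a repressor of Cdh1, fell by 5.45, from 53.8, 56.1 and 87.4 FPKM to 0.322, 0.666 and 0.506 FPKM. Vimentin (Vim), the intermediate filament of mesenchymal cells, had 319, 291 and 509 FPKM in SSC and 214, 259 and 218 FPKM in SSCiPSC and did not pass (limma adjusted p = 0.0554), but passed in 6 of 20 alternatives, with -1.79 on the log2 scale and a limma adjusted p of 0.000594 under quantile normalization. Of 22 epithelial junction and cytokeratin genes tested, 9 rose (40.9%) and 6 fell (3 fell without SSCiPSC replicate 1 and 3 without replicate 3). St14, a membrane serine protease of epithelia, rose by 3.09, from 1.15, 2.03 and 3.93 FPKM to 27.5, 23.5 and 27.2 FPKM. Among the connexins, which form gap junctions, Gjb5 and Gjc1 rose and Gja4, the connexin of vessels, fell, Gjc1 with a call lost in 3 of the 6 fits without 1 library and in 6 of 20 alternatives in all, with a limma adjusted p of up to 0.291. Gja1, another connexin, had 24.5, 27.5 and 35.3 FPKM and 10.2, 20.7 and 20.9 FPKM and did not pass (limma adjusted p = 0.0758), but passed in 5 of 20 alternatives, with -1.05 on the log2 scale and a limma adjusted p of 0.0247 under quantile normalization.

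Genes of the extracellular matrix were read next. Of 30 genes named as collagens, 23 fell (Col4a3bp among them, which encodes a lipid carrier) and 2, Col8a1 and Col9a2, rose (21 fell without SSC replicate 3), with a median log2 fold change of -1.77. In this family 12 genes passed the filter through SSC alone and 1 through SSCiPSC alone (1 rose and 11 fell of the 17 found in both groups). Col8a1 had a call lost in 4 of the 6 fits without 1 library and in 6 of 19 alternatives in all, with a limma adjusted p of up to 0.0803, and Col4a3bp a call lost in 6 of the 6 fits without 1 library and in 11 of 20 alternatives in all, with a limma adjusted p of up to 0.112. Of 26 metalloproteases and matrix protease inhibitors tested, 20 fell and 1, Mmp11, rose (1 rose and 13 fell of the 19 found in both groups). Adamts1, a protease that cleaves proteoglycans, fell by 4.75, from 50.2, 45.7 and 63.2 FPKM to 0.782, 1.07 and 1.14 FPKM. Mmp2, which degrades basement membrane, fell by 2.46, from 17.1, 28 and 43.2 FPKM to 5.82, 2.94 and 4.2 FPKM. Adam23, a relative outside that list that lacks protease activity and binds integrins, rose by 3.10, from 3.31, 3.25 and 5.36 FPKM to 31, 46.2 and 47.1 FPKM. Of 29 basement membrane and matrix genes tested, 16 fell and 4 rose (4 rose and 7 fell of the 20 found in both groups). Lama2, a laminin chain, fell by 3.95, from 16.7, 11.5 and 22.4 FPKM to 0.0416, 0 and 0.348 FPKM. Of 18 integrins, the receptors for matrix, 10 fell and 3 rose (2 rose and 6 fell of the 13 found in both groups). The risers were Itgae and Itgb7, which are known from lymphocytes, and Itgb3bp, a centromere protein that shares only the name and had a call lost in 6 of the 6 fits without 1 library and in 9 of 19 alternatives in all, with a limma adjusted p of up to 0.121. Itgav, the alpha chain of the vitronectin receptor, fell by 2.65, from 55.9, 43.1 and 64.7 FPKM to 8.54, 6.32 and 8.47 FPKM. Of 22 semaphorins and plexins, guidance ligands and their receptors, 12 fell and 1, Sema4a, rose. Of the 14 found in both groups 1 rose and 4 fell, and this share of falls is near the 22.1% of all such genes. Sema6d fell from 28.3, 31.9 and 28.5 FPKM to 0.0448, 0 and 0.0375 FPKM. Sema4a had a call lost in 5 of the 6 fits without 1 library and in 10 of 19 alternatives in all, with a limma adjusted p of up to 0.146.

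Signalling pathways were read from ligands to feedback genes. In the list of insulin and IGF signalling, 17 of 25 genes tested fell and 1 rose (2 rose without SSCiPSC replicate 1). The gene that rose was Igfbp2, a secreted binding protein for insulin-like growth factors, which went from 24.3, 28.1 and 52.8 FPKM to 686, 512 and 654 FPKM, a log2 rise of 4.17 (standard error 0.30). Its relative Igfbp3 fell by 3.78, from 103, 91.5 and 78.6 FPKM to 5.71, 4.94 and 6.5 FPKM. Of 36 genes of TGF-beta and BMP signalling tested, 21 fell and 6 rose (3 rose and 14 fell of the 26 found in both groups). Inhba, the chain of activin A, fell by 4.52, from 17.6, 15.3 and 57.2 FPKM to 0, 0.221 and 0.201 FPKM, and Id2, a target gene of BMP signals, fell by 2.82, from 16.3, 11.6 and 23.1 FPKM to 1.32, 1.46 and 1.63 FPKM. Gdf3, a ligand of the same superfamily, had 0, 0.168 and 0 FPKM in SSC and 75.2, 90.02 and 76.5 FPKM in SSCiPSC. Of 34 Wnt signalling genes, 21 fell and 7 rose (7 rose and 12 fell of the 25 found in both groups). Wls, which carries Wnt ligands to the cell surface, fell by 3.09, from 15.6, 14.2 and 17 FPKM to 0.88, 0.551 and 1.53 FPKM. Among the receptors Fzd3 fell by 2.08, from 14.8, 17.3 and 14.3 FPKM to 4.06, 1.88 and 3.01 FPKM, and Fzd7 rose by 1.47, from 8.74, 10.7 and 9.68 FPKM to 24.3, 33.4 and 28.7 FPKM.

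Of 27 genes of FGF-ERK signalling tested, 10 rose (37.0%, near the background) and 6 fell. Fgf17, a ligand, rose from 1.62, 0.62 and 1.26 FPKM to 12.6, 28 and 12.3 FPKM. Of the feedback genes of the list, the phosphatases Dusp4, Dusp5 and Dusp6 fell, as did Spred1, with a call lost in 5 of the 6 fits without 1 library and in 6 of 20 alternatives in all, with a limma adjusted p of up to 0.0846. Spry1, Spry2, Spry4 and Spred2 did not pass, though Spred2 passed in 1 of 20 alternatives, with 0.58 on the log2 scale and a limma adjusted p of 0.0418 without SSCiPSC replicate 1. Of 17 dual specificity phosphatases tested, 12 fell and 2, Dusp12 and Dusp27, rose. Dusp10 fell by 4.58, from 27.5, 31.1 and 48.4 FPKM to 0.47, 0.589 and 0.401 FPKM. Dusp5, a nuclear phosphatase of ERK, fell by 3.66, from 125, 103 and 138 FPKM to 7.18, 9.87 and 9.12 FPKM. The LIF-STAT3 list was split, with 7 of 18 higher and 8 lower (6 rose and 5 fell of the 14 found in both groups). The kinases Jak1 and Jak2, which pass on cytokine signals, fell by 1.77 and 3.16 on the log2 scale, Jak2 from 38.1, 33.7 and 34.4 FPKM to 3.51, 2.44 and 3.32 FPKM. Socs3, the feedback inhibitor and a target of STAT3, rose by 2.07, from 19.9, 17 and 22.8 FPKM to 84.7, 80.1 and 94 FPKM. Of 22 Notch genes, 10 fell and 5 rose (3 rose without any 1 of the SSCiPSC libraries). The ligand Jag1 fell by 2.30, from 28, 24.9 and 33 FPKM to 5.23, 4.58 and 5.15 FPKM, and Rbpj, the DNA-binding partner of Notch, rose by 1.92, from 10.1, 14.2 and 11.6 FPKM to 39.9, 60.2 and 45.2 FPKM.

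In each immune list given here more genes fell than rose, in libraries that also differed in macrophage and mast cell transcripts as given above. Of 10 genes of antigen presentation tested, 8 fell and 0 rose in limma's test (7 fell without SSC replicate 3, and at an unadjusted p below 0.05 0 rose), and 0 rose and 3 fell of the 5 found in both groups. H2-K1, a class I molecule of nearly all body cells whose reads can be shared with its close relatives, fell by 1.71, from 42.8, 28.2 and 40.5 FPKM to 14.2, 6.91 and 11.7 FPKM. Erap1, which trims peptides for class I molecules, fell by 3.04, from 22, 24.5 and 21 FPKM to 3.09, 1.25 and 1.5 FPKM. Of 10 chemokines and receptors tested, 8 fell and 0 rose in limma's test (7 fell without SSC replicate 3, 5 without SSCiPSC replicate 1 and 5 without SSCiPSC replicate 2, and at an unadjusted p below 0.05 0 rose), and 0 rose and 4 fell of the 6 found in both groups. Of 20 interleukins and receptors 14 fell and 3, Il17b, Il17rc and Il23a, rose (0 rose and 3 fell of the 6 found in both groups). Il15ra, which presents interleukin 15, fell by 4.84, from 24.4, 28.5 and 38.4 FPKM to 0.133, 0 and 0.108 FPKM. Of 23 interferon response genes tested, 11 fell and 5 rose. Both chains of the interferon gamma receptor were lower, Ifngr1 from 19.3, 15.5 and 15.1 FPKM to 1.77, 0.703 and 1.85 FPKM and Ifngr2 from 34.6, 44.3 and 33.9 FPKM to 1.87, 2.77 and 1.76 FPKM. Ddx58, the RNA sensor RIG-I, rose by 2.96, from 3.23, 2.2 and 2.96 FPKM to 26.8, 45.1 and 18.8 FPKM.

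Among the groups with at least 15 genes tested, the mitosis and DNA replication lists had the highest shares of rising genes after the pluripotency network. Of 50 mitosis genes tested, 48 rose (96.0% against 33.9% of all genes), with a median log2 fold change of 1.82, and of 48 DNA replication genes 45 rose (93.8%), with a median of 1.92. Neither list had a gene that fell in limma's test (at an unadjusted p below 0.05, 0 fell and 0 fell), but under quantile normalization 43 mitosis genes rose and 1 fell. Cdk1, the kinase that drives mitosis, rose by 3.32, from 16.6, 25.6 and 21.8 FPKM to 235, 208 and 212 FPKM (standard error 0.18, limma adjusted p = 7.79e-05). Birc5, survivin, a protein of the centromere, rose by 3.49, from 13.4, 23.3 and 7.19 FPKM to 158, 180.3 and 139.9 FPKM. Rrm2, the ribonucleotide reductase subunit that supplies DNA precursors in S phase, rose by 4.92, from 2.17, 4.23 and 4.18 FPKM to 127, 126 and 146 FPKM. Foxm1, a transcription factor of mitotic genes, had 13.9, 15.9 and 15.9 FPKM in SSC and 9.15, 14 and 12.7 FPKM in SSCiPSC and did not pass (limma adjusted p = 0.202). In the list of the G1 phase and its inhibitors the rise was less uniform, with 13 of 27 higher and 6 lower. Ccne1, the cyclin that opens S phase, rose by 5.02, from 2.79, 3.6 and 3.56 FPKM to 109, 182 and 134 FPKM, the steepest of the cyclins. E2f6, a repressor of the E2F family, fell by 1.66, from 28.7, 36.6 and 36.6 FPKM to 8.87, 9.41 and 11.8 FPKM.

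**Figure D4:**
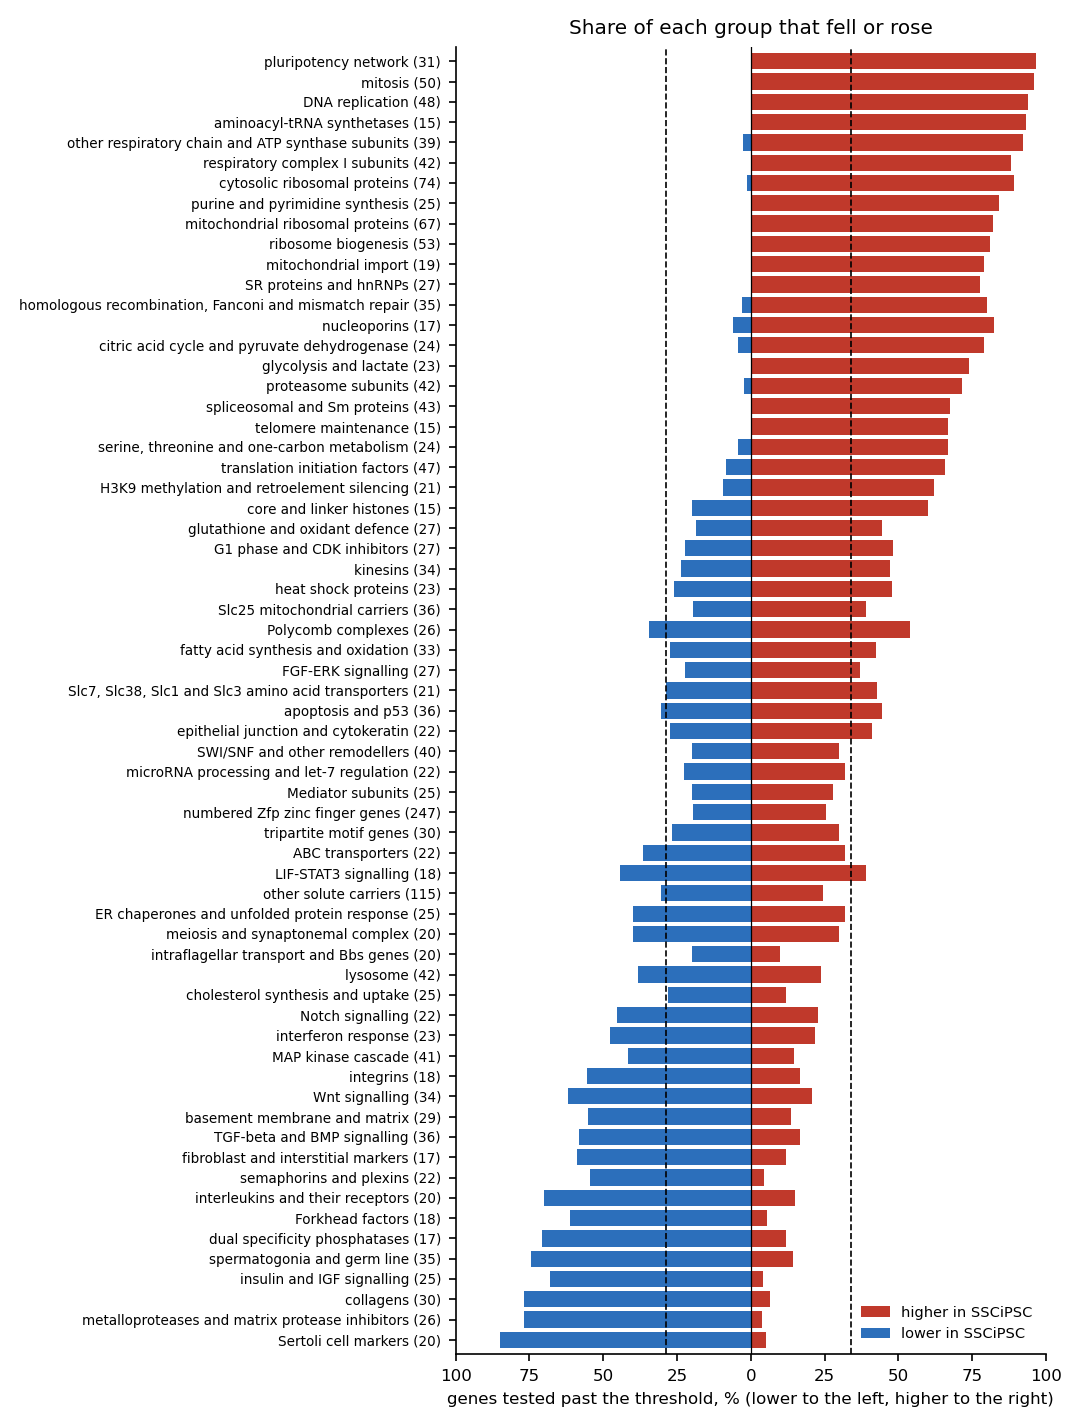
Share of the genes tested that rose (to the right) or fell (to the left) in SSCiPSC, in percent, in the groups described that had at least 15 genes tested, with the number tested beside each name. Dashed lines mark the shares over all genes tested, 33.9% higher and 28.6% lower, and the groups are ordered by the share higher minus the share lower, from the pluripotency network at the top to Sertoli cell markers at the bottom.

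Of 35 genes of homologous recombination, Fanconi and mismatch repair tested, 28 rose and 1 fell, Rad52, with a call lost in 1 of the 6 fits without 1 library and in 3 of 20 alternatives in all, with a limma adjusted p of up to 0.0612. Chek2, a kinase of the response to DNA breaks, rose by 2.01, from 8.38, 17.5 and 5.37 FPKM to 41.4, 41.7 and 38.8 FPKM. Of 15 telomere genes, 10 rose and 0 fell in limma's test (at an unadjusted p below 0.05, 0 fell, and without SSC replicate 3, 1 fell). Dkc1, which binds telomerase RNA and modifies ribosomal RNA, rose by 3.21, from 17.8, 18.5 and 21.9 FPKM to 199, 176 and 187 FPKM. The repair list also holds genes that did not pass, such as Rbbp8, which starts the resection of breaks, with 21, 26.2 and 21.9 FPKM and 20.4, 16.5 and 21.7 FPKM (limma adjusted p = 0.308).

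Chromatin genes divided by complex. Of 26 Polycomb genes tested, 14 rose (53.8%) and 9 fell (34.6%). Ezh2, the methyltransferase of histone H3 lysine 27, rose by 2.82, from 7.85, 9.27 and 6.38 FPKM to 47.1, 70.5 and 67.8 FPKM, and its partner Eed rose by 1.97, from 35.1, 42.1 and 30.7 FPKM to 122, 188 and 127 FPKM. In the other direction, Scml2, a Polycomb protein of male germ cells, fell by 2.86, from 59.3, 67.1 and 40.2 FPKM to 6.49, 5.5 and 8.0 FPKM, and Phc2 fell by 2.44, from 37.9, 34.3 and 34.6 FPKM to 3.8, 7.91 and 6.09 FPKM. Of 21 genes of H3K9 methylation and retroelement silencing, 13 rose and 2 fell, Suv39h1, a methyltransferase of the mark itself, and Pphln1. Trim28, the corepressor recruited by zinc finger proteins, rose by 2.36, from 127, 148 and 114 FPKM to 468, 1029 and 613 FPKM. Zfp57, a zinc finger protein that recruits Trim28 to imprinted regions, rose by 4.31, from 9.27, 9.31 and 7.36 FPKM to 175, 254 and 154 FPKM. Ehmt2, a histone H3 lysine 9 methyltransferase, had 56, 87.6 and 50.2 FPKM and 38, 67.1 and 42.1 FPKM and did not pass (limma adjusted p = 0.309), but passed in 1 of 20 alternatives, with -1.02 on the log2 scale and a limma adjusted p of 0.0173 under quantile normalization. Of 15 core and linker histone genes tested, 9 rose and 3 fell, with 5 and 4 under quantile normalization, and reads of these short genes can be shared between copies. The labels name both ribosomal depletion and a stranded mRNA kit, and the level of transcripts without a poly(A) tail, as of many histone genes, depends on which step selected the RNA. Hist1h2bk rose by 3.01, from 39.7, 54.5 and 44.9 FPKM to 329, 357 and 459 FPKM, and Hist1h2ba, the testis form of H2B, fell by 3.83, from 98.8, 148 and 94.3 FPKM to 3.8, 7.23 and 11.6 FPKM.

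Genes of RNA processing, protein synthesis and the proteasome rose in most of their members, with medians between 0.76 and 1.53 on the log2 scale in 8 groups. Under quantile normalization these medians lay between 0.11 and 1.01, and in 4 of the 8 groups most members no longer rose. Of 53 ribosome biogenesis genes tested, 43 rose and 0 fell in limma's test (at an unadjusted p below 0.05, 0 fell, and under quantile normalization 1 fell), with a median log2 fold change of 1.14 (0.64 under quantile normalization). Gnl3l, a nucleolar GTPase, rose by 3.01, from 6.14, 8.81 and 8.51 FPKM to 69.2, 75.2 and 63.8 FPKM. Npm1, the nucleolar chaperone nucleophosmin, rose by 2.59, from 177, 247 and 216 FPKM to 1261, 1302 and 1269 FPKM. Of 74 cytosolic ribosomal protein genes, 66 rose and 1 fell. The gene that fell was Rpl39l, a form made mainly in testis, from 63.2, 80.6 and 65.5 FPKM to 29.3, 49.3 and 25.4 FPKM (limma adjusted p = 0.0161, or 0.0608 without SSCiPSC replicate 1 and 0.0562 without SSCiPSC replicate 3). Ribosomal protein genes, Npm1, Ldha and Hsp90aa1 have processed copies in the genome, and how the authors counted fragments that fit several places is not given in the sources used here, so their levels are uncertain.

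Of 67 mitochondrial ribosomal protein genes tested, 55 rose and 0 fell in limma's test (at an unadjusted p below 0.05, 0 fell). Mrpl15 rose by 2.61, from 27.5, 52.9 and 43.2 FPKM to 223, 287 and 240.02 FPKM. Other groups of this kind depended more on the scaling. Of 15 aminoacyl-tRNA synthetases, which charge tRNA, 14 rose, and 8 rose and 1 fell under quantile normalization. Of 47 translation initiation factors 31 rose and 4 fell, with 14 and 8 under quantile normalization (2 fell without SSC replicate 1 or 2 or SSCiPSC replicate 1 or 3). Of 43 spliceosomal and Sm proteins 29 rose, and 16 rose and 3 fell under quantile normalization. Of 27 SR proteins and hnRNPs 21 rose, and 11 rose and 4 fell under quantile normalization. Srsf7, a splicing regulator, rose by 1.97, from 78.2, 81 and 84.3 FPKM to 321, 326 and 319 FPKM. Of 42 proteasome genes 30 rose and 1 fell, with 15 and 6 under quantile normalization, and the gene that fell was Psmb8, a subunit of the immunoproteasome. Psma7, a subunit of the proteasome core, rose by 1.74, from 78.6, 99.3 and 80.2 FPKM to 318, 287 and 264 FPKM. Hnrnpul1, an RNA-binding protein, had 163, 205 and 155 FPKM and 142, 138 and 129 FPKM and did not pass (limma adjusted p = 0.0898), but passed in 3 of 20 alternatives, with -1.35 on the log2 scale and a limma adjusted p of 0.000501 under quantile normalization.

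Glycolysis had the highest median of the metabolic lists. Of 23 genes of glycolysis and lactate tested, 17 rose and 0 fell in limma's test (at an unadjusted p below 0.05, 0 fell), with a median log2 fold change of 2.09, and 15 rose under quantile normalization. Slc2a3, a high-affinity glucose transporter, rose by 5.04, from 11.4, 6.69 and 7.19 FPKM to 306, 262 and 343 FPKM (standard error 0.22, limma adjusted p = 4.55e-05). The other main glucose transporter of these cells, Slc2a1, rose by 2.94, from 28.8, 25.3 and 28.8 FPKM to 239, 174 and 249.9 FPKM. Pfkp, a phosphofructokinase that commits sugar to glycolysis, rose by 4.47, from 9.06, 8.67 and 8.6 FPKM to 261, 161 and 241 FPKM. Ldha, lactate dehydrogenase, rose by 4.17, from 31.3, 23.9 and 28.8 FPKM to 681, 334 and 617 FPKM, and Slc16a3, which exports lactate, rose by 3.29, from 2.39, 4.46 and 5.08 FPKM to 60.5, 29.8 and 54.3 FPKM. In Pfkp, Ldha and Slc16a3 the lowest SSCiPSC value was in replicate 2. Slc16a10, an aromatic amino acid transporter of the same family as Slc16a3, fell by 3.51, from 16.6, 13.4 and 23.7 FPKM to 0.825, 0.332 and 0.735 FPKM. Aldoc, an aldolase, had 22.8, 20.2 and 11.9 FPKM and 43.7, 13.8 and 29.97 FPKM, which overlapped (limma adjusted p = 0.343).

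Genes of the respiratory chain and of the citric acid cycle rose in most of their members too. Of 42 genes of respiratory complex I tested, subunits and assembly factors, 37 rose and 0 fell in limma's test (at an unadjusted p below 0.05, 0 fell, and 26 rose and 2 fell under quantile normalization). Of 39 other respiratory chain and ATP synthase subunits, 36 rose and 1 fell (22 and 4 under quantile normalization), and of 24 genes of the citric acid cycle and pyruvate dehydrogenase 19 rose and 1 fell. Idh2, the mitochondrial isocitrate dehydrogenase, rose by 2.95, from 9.88, 10.3 and 24.6 FPKM to 123, 114 and 103 FPKM. Forms of energy genes known from testis moved both ways. Cox7b2 fell by 2.36, from 28.4, 45.3 and 17.1 FPKM to 5.2, 2.74 and 6.82 FPKM, while Cox7b, the form of most tissues, rose by 2.34, from 65.1, 67 and 63.9 FPKM to 389, 285 and 337 FPKM. Slc25a31, the ATP carrier of male germ cells, fell by 3.93, from 47.2, 69 and 41.3 FPKM to 2.27, 2.57 and 2.46 FPKM, among 36 carriers of the Slc25 family of which 14 rose and 7 fell (4 fell without any 1 of the SSCiPSC libraries). Cox6b2, also known from testis, rose by 3.90, from 0, 3.13 and 6.18 FPKM to 46.9, 39.3 and 49.8 FPKM. Of 11 tubulin genes tested, 5 rose and 2 fell (3 rose without SSCiPSC replicate 2). The 2 that fell are tubulins of the testis, Tuba3a from 133, 176 and 123 FPKM to 23.6, 33.4 and 26.3 FPKM and Tuba3b from 81.6, 145 and 101 FPKM to 2.09, 2.59 and 3.59 FPKM. The pair is nearly identical in sequence, and its reads may be divided arbitrarily.

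**Figure D5:**
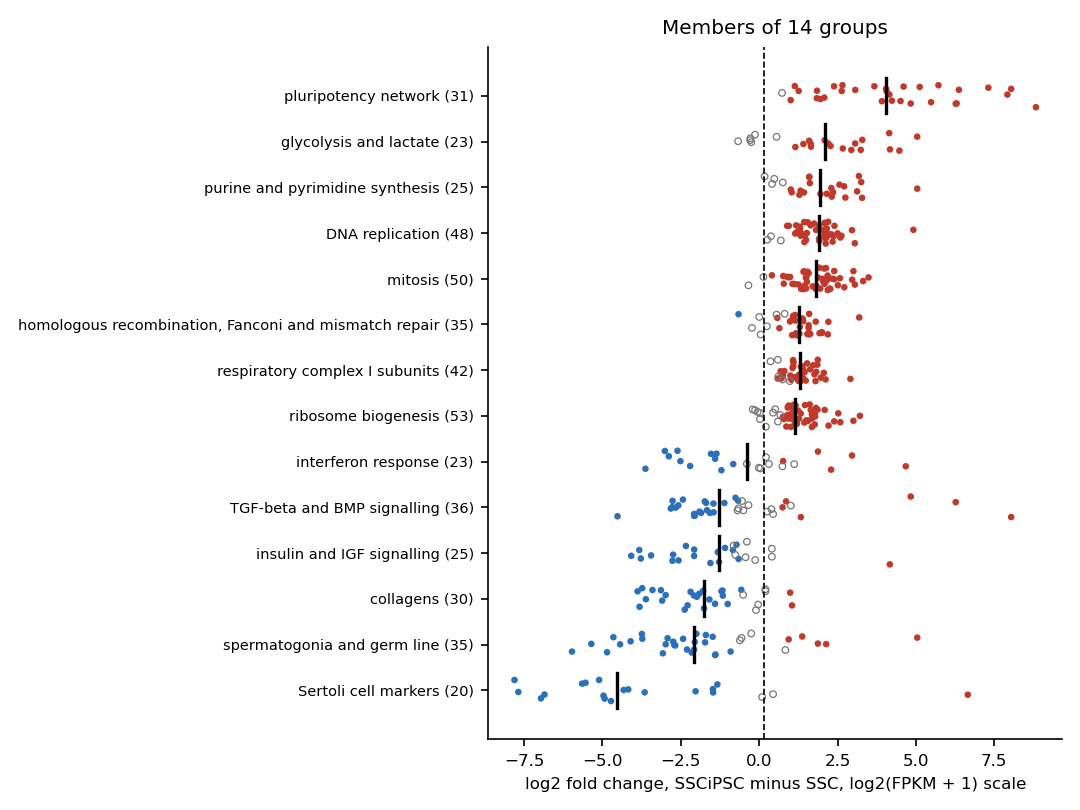
Log2 fold change, SSCiPSC minus SSC on the log2(FPKM + 1) scale, of each gene tested in 14 groups, with 1 point per gene, filled where the gene passed the threshold, and a bar at the group's median. The dashed line marks 0.15, the median of all genes tested, and the median is above it in the upper 8 groups and below it in the lower 6.

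Of 25 genes of purine and pyrimidine synthesis tested, 21 rose and 0 fell in limma's test (at an unadjusted p below 0.05, 0 fell). Prps2, which makes the ribose phosphate that nucleotides are built on, rose by 3.26, from 1.89, 3.3 and 4.48 FPKM to 39.5, 39.7 and 35.1 FPKM. Of 24 genes of serine, threonine and one-carbon metabolism, which feed the same syntheses, 16 rose and 1, the methionine synthase Mtr, fell (2 fell without SSC replicate 3). Beside Tdh, Amt, an enzyme of glycine cleavage, rose by 5.19, from 0.537, 2.47 and 1.37 FPKM to 88.5, 88.1 and 76.7 FPKM, and Mthfd1, which moves one-carbon units on folate, rose by 3.70, from 7.4, 8.05 and 10.7 FPKM to 116, 152 and 108 FPKM. Its mitochondrial relative Mthfd2 had 20.6, 28.6 and 34.2 FPKM and 34.1, 36.2 and 63.4 FPKM and did not pass (limma adjusted p = 0.12), but passed in 1 of 20 alternatives, with 0.63 on the log2 scale and a limma adjusted p of 0.0376 with the replicate block. Of 21 genes tested that are named as amino acid transporters, 9 rose and 6 fell. Among the 9 is Slc7a6os, which is named for lying opposite the transporter gene Slc7a6 and encodes no transporter. Slc7a3, a transporter of arginine and lysine, rose by 4.71, from 1.72, 1.15 and 3.13 FPKM to 62.8, 90.4 and 73.3 FPKM, and Slc1a5, which takes up glutamine, rose by 3.43, from 3.92, 2.44 and 3.64 FPKM to 47.8, 35.8 and 53.9 FPKM.

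Retinoid genes, which make, carry and sense retinoic acid, were read together. Of 14 genes of retinoid metabolism and receptors tested, 9 fell and 3 rose (1 rose without SSC replicate 3 and 1 without SSCiPSC replicate 2), and 3 rose and 5 fell of the 10 found in both groups. Rdh10, which makes retinal from retinol, fell by 2.43, from 14.9, 9.78 and 11.2 FPKM to 1.48, 1.52 and 1.16 FPKM. Among the receptors Rxra fell by 2.37, from 16, 16.6 and 11.9 FPKM to 1.7, 2.69 and 1.77 FPKM, and Rarg rose by 2.26, from 5.28, 8.47 and 2.9 FPKM to 19.4, 55.9 and 21.2 FPKM, highest in SSCiPSC replicate 2. Abca1, which exports cholesterol, fell by 4.45, from 113, 87.5 and 95.9 FPKM to 4.02, 3.06 and 3.58 FPKM, among 22 ABC transporters of which 7 rose and 8 fell. Of 25 genes of cholesterol synthesis and uptake, 3 rose and 7 fell, 13 fell under quantile normalization, and between 3 and 5 fell when any 1 library was left out. Msmo1, a sterol oxidase, had 91.2, 103 and 85.8 FPKM and 93.2, 55.3 and 90.5 FPKM, which overlapped (limma adjusted p = 0.38), but passed in 1 of 20 alternatives, with -1.06 on the log2 scale and a limma adjusted p of 0.00719 under quantile normalization. Hsd17b14, a hydroxysteroid dehydrogenase, was listed at 0 in every SSC library and at 33.1, 37.7 and 36.9 FPKM in SSCiPSC, in contrast with Hsd17b3.

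Of 27 genes of glutathione and oxidant defence, 12 rose and 5 fell, with 9 and 8 under quantile normalization, and 3 fell without SSCiPSC replicate 3. Gpx1, the main glutathione peroxidase, rose by 2.44, from 48.1, 42.5 and 56.5 FPKM to 261, 342 and 219.7 FPKM, and Gstm5, a glutathione transferase, fell by 3.18, from 32.7, 52.4 and 41.9 FPKM to 4.24, 2.46 and 4.75 FPKM. Of 23 heat shock proteins 11 rose and 6 fell, with 7 and 8 under quantile normalization. Hsp90aa1 rose by 2.94, from 125, 168 and 102 FPKM to 1107, 968 and 919 FPKM. Of 36 genes of apoptosis and p53, 16 rose and 11 fell. Of 8 annexins, which bind membranes in a calcium-dependent way, 4 fell and 1, Anxa8, rose, with Anxa5 down by 5.22, from 173, 186 and 226 FPKM to 7.08, 2.59 and 3.91 FPKM. Of 11 cathepsins, proteases of the lysosome, 6 fell and 1 rose, Ctsa, with a call lost in 5 of the 6 fits without 1 library and in 12 of 20 alternatives in all, with a limma adjusted p of up to 0.367. Of the 7 cathepsins found in both groups 1 rose and 2 fell, and this share of falls is near the 22.1% of all such genes. Ctsl fell by 2.29, from 298, 412 and 372 FPKM to 87.6, 48.6 and 89.4 FPKM, while Ctsd had 149, 126 and 177 FPKM and 140.3, 116 and 116 FPKM and did not pass (limma adjusted p = 0.221), but passed in 1 of 20 alternatives, with -1.24 on the log2 scale and a limma adjusted p of 0.00219 under quantile normalization. Lgals1, a galectin of mesenchymal cells, fell by 2.42, from 87.6, 118 and 156 FPKM to 25.3, 17.1 and 21.8 FPKM. Adgrg1, an adhesion receptor, fell by 4.96, from 35.6, 45.6 and 49.7 FPKM to 0.638, 0.20 and 0.446 FPKM, and Kcnc2, a voltage-gated potassium channel, fell by 5.42, from 62.4, 42.1 and 37.2 FPKM to 0.088, 0 and 0.21 FPKM.

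Transcription factors were described by family. Of 17 Hox genes with a locus 5 were tested, 4 of them through SSC alone, so their falls are not counted. Hoxb9, the most abundant of the 5, had 29.7, 25.8 and 20.9 FPKM in SSC and 8.88, 9.26 and 7.43 FPKM in SSCiPSC (log2 fall 1.46), and Hoxd8 had 6.29, 3.97 and 6.93 FPKM and 0.0962, 0 and 0.10 FPKM. Of 18 Forkhead genes 11 fell and 1, Foxh1, a partner of Smad proteins, rose (2 rose without SSC replicate 3), and 1 rose and 7 fell of the 14 found in both groups. Foxf1, a factor of interstitial mesenchyme, had 22.1, 26 and 18.5 FPKM in SSC and was listed at 0 in SSCiPSC, and Foxp1 fell by 3.58, from 22.2, 18.9 and 12.8 FPKM to 0.617, 0.474 and 0.579 FPKM. Of 10 SOX genes 7 fell and 2, Sox2 and Sox15, rose (1 rose and 3 fell of the 4 found in both groups). Sox4, a factor of progenitor cells, fell by 3.21, from 31.2, 28.8 and 23.7 FPKM to 2.88, 1.87 and 1.68 FPKM, in contrast with Sox2. The 14 Krüppel-like (KLF) factors tested were mixed, with 5 higher and 3 lower. Klf2, a naive pluripotency factor, rose by 3.07, from 9.75, 6.41 and 10.2 FPKM to 58.2, 83.4 and 104 FPKM, and Klf6 fell by 2.41, from 119, 103 and 156 FPKM to 22.5, 16 and 31.7 FPKM. The numbered Zfp genes were the largest family, and of 247 tested 63 rose (25.5%) and 48 fell (19.4%), both below the shares of all genes. Its steep rises include Zfp42, the naive marker Rex1, from 0.413, 1.73 and 1.05 FPKM to 72.8, 62 and 71.1 FPKM. Zscan10, a zinc finger factor of pluripotent cells, had 0, 0.661 and 0 FPKM in SSC and 34.2, 57.2 and 32.7 FPKM in SSCiPSC.

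Other groups changed in smaller shares or in both directions. Of 40 genes of SWI/SNF and other remodellers tested, 12 rose and 8 fell, with 8 and 11 under quantile normalization. Smarca2 and Smarca4 are the alternative ATPases of the SWI/SNF complex. Smarca2 fell by 3.93, from 29.8, 27.6 and 27 FPKM to 0.609, 1.4 and 0.784 FPKM. Smarca4 had 104, 109.97 and 87.8 FPKM and 55.5, 95.3 and 73.1 FPKM and did not pass (limma adjusted p = 0.126), but passed in 2 of 20 alternatives, with -1.26 on the log2 scale and a limma adjusted p of 0.00207 under quantile normalization. Actl6a, a subunit shared by several remodellers, rose by 2.0, from 29.3, 36.1 and 31.1 FPKM to 119, 163 and 116 FPKM. Of 42 lysosome genes 10 rose and 16 fell (6 rose without SSC replicate 2, SSCiPSC replicate 1 or SSCiPSC replicate 3), of 25 genes of ER chaperones and the unfolded protein response 8 and 10 (4 and 15 under quantile normalization, and 6 fell without SSCiPSC replicate 3), and of 115 other solute carriers 28 and 35. Of 30 tripartite motif genes 9 rose and 8 fell, of 25 Mediator subunits 7 and 5 (2 and 7 under quantile normalization, and 3 fell without SSC replicate 2, SSCiPSC replicate 1 or SSCiPSC replicate 3), and of 20 genes of intraflagellar transport 2 and 4 (1 rose without SSCiPSC replicate 1 or 2).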

How the data were processed

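The authors deposited FPKM for 54914 loci assembled and quantified across the series. The submitters' processing notes name Trimmomatic 0.32, TopHat2 2.0.9, Bowtie2 2.1.0, Cufflinks 2.2.1 and Cuffdiff, and the labels name both ribosomal depletion and a stranded mRNA kit, so whether RNA was selected by poly(A) is uncertain. The notes name mm9, but the coordinates are those of GRCm38: 92.8% of loci with a strand lay on a gene of their strand, against 38.3% and 37.9% after a shift of 1000000 bases. Loci were named by GENCODE M21 protein-coding genes (overlap of at least 50%), and the locus with the highest mean of 9 libraries was kept per gene. log2(FPKM + 1) was fitted in limma 3.58.1 (R 4.3.3, lmFit, eBayes with trend) over the 36544 loci of at least 1 FPKM in at least 3 of 6 libraries, with Benjamini-Hochberg adjustment over all loci (threshold 0.05), and genes were read off that fit. Tested on simulated data with few changed loci, the fit recovered most large changes and missed the small ones, and the share of false calls was somewhat above the threshold. FPKM keep no fragment counts, so depth was estimated from the lowest values.

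The 47 gene lists and 84 name patterns, the groups and the tests were chosen with earlier results of these data known, and 6 patterns were corrected after their members were seen. Lists are described by counts and medians only, and the counts over genes that reached 1 FPKM in both groups were added after seeing the data. Named genes are the 10 largest changes in each direction (groups not overlapping, at least 10 FPKM in 1 group), up to 3 leading and 2 other members of each list, Gfra1 and the reprogramming factors. Beyond that rule, the most abundant and the absent markers of each cell type list, members of counts of 5 or fewer, genes that share only the name of a family, the FGF-ERK feedback genes and Smarca2 were named after their values were seen. Imprinted, Tet and Dnmt genes were set aside, and some further genes and a gene group are not reported here. Alternatives changed the pseudocount, filter, scaling, model, libraries, threshold and locus naming.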

Additional observations from a re-analysis of the deposited data

How the results depend on the processing

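The number of genes that rose (3688) and fell (3113) stayed within 1.5 times of these values in all 20 alternatives. Leaving out 1 library at a time gave between 2980 and 3541 rising and between 2566 and 3036 falling genes, and between 5546 and 6522 in all. Quantile normalization gave 2975 and 3489, median-ratio scaling 3260 and 3388, a pseudocount of 0.1 gave 3583 and 3072, one of 5 gave 3707 and 3087, no filter 3651 and 3224 of 12666 genes, a mean of at least 5 FPKM 3268 and 2118 of 8095 genes, and an adjusted p below 0.01 gave 2668 and 2324. The labels give both groups replicate numbers 1 to 3, but same-numbered libraries did not deviate together (correlations of -0.00191, 0.0267 and -0.00197 over 36544 loci), so the numbers do not pair them. With the replicate block 3403 genes rose and 2828 fell. Of 191 named genes that passed, 175 passed in every alternative that tested them, and none of them changed sign. These genes were mostly picked for large changes in the same libraries, so this is a description and not support. Of all 6801 genes that passed, 4992 had a limma adjusted p below 0.01. Of the named genes that did not pass, Spry2 (0.15 on the log2 scale) was at -0.046 under quantile normalization and between -0.12 and 0.36 without 1 library, and Spry4 (-0.25) between -0.73 and 0.19 without 1 library. Over 79 groups and 20 alternatives, the larger count of a group moved by over 1.5 times in 47 cases. Most of these came under a mean of at least 5 FPKM (fewer genes tested), quantile normalization or an adjusted p below 0.01. The smaller count of each group is not in this number, and several moved by over 1.5 times without 1 library, as given above. Medians changed sign 20 times, in 9 groups, each with a median smaller than the SD of the difference between libraries (from 0.09 to 0.54, from the variances of the library medians in both groups). The median of SWI/SNF and other remodellers went from 0.17 to -0.22 and that of FGF-ERK signalling from 0.32 to -0.046 under quantile normalization, and that of lysosome genes from -0.20 to 0.14 under a mean of at least 5 FPKM. The cause of the shifts with scaling was not tested. The shallow SSC libraries limit what can be said of genes listed at 0 in SSC, since 1 fragment per kilobase is worth 0.566, 0.216 and 0.723 FPKM there. Stranded loci alone, and genes with 1 locus in their interval, were tried after seeing the data and gave 4042 and 3327, and 3628 and 3091.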

Other observations

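Further families were described in the same way, beside 33.9% of all genes higher and 28.6% lower. Of 34 genes named as kinesins, motors that move along microtubules, 16 rose and 8 fell. Kif22, which moves chromosomes in mitosis, rose by 2.82 on the log2 scale, from 10.5, 19.12 and 10.8 FPKM in SSC to 87.6, 99.95 and 106 FPKM in SSCiPSC, and Kif3a, a motor of cilia, fell by 1.30, from 45, 65.1 and 32.1 FPKM to 22.5, 17.5 and 14.5 FPKM. Of 17 nucleoporins 14 rose and 1 fell (0 without SSCiPSC replicate 3), with 9 rising under quantile normalization. Nup210l, a relative of the pore membrane protein Nup210, rose by 2.39, from 67.6, 64.3 and 70.05 FPKM to 325, 372 and 373 FPKM. Of 41 genes picked by names of the MAP kinase cascade 17 fell and 6 rose, and such names also cover proteins that interact with these kinases. Mapk10, the kinase JNK3, fell by 3.26, from 10.9, 13.2 and 9.46 FPKM to 0.195, 0.264 and 0.336 FPKM, and Map3k5, an upstream kinase of the stress response, fell by 3.21, from 16.4, 16.4 and 18.2 FPKM to 1.06, 0.763 and 1.02 FPKM. Of 22 genes of microRNA processing and let-7 regulation 7 rose and 5 fell, with 4 and 5 under quantile normalization. Igf2bp1, an RNA-binding protein of embryonic cells, rose by 2.13, from 14, 13.8 and 13 FPKM to 39.99, 97 and 64.5 FPKM, and Mycn rose by 2.08, from 12, 19.5 and 11.3 FPKM to 57.2, 61 and 67 FPKM, whereas its relative Myc fell. Of 33 genes of fatty acid synthesis and oxidation 14 rose and 9 fell. Etfb, which passes electrons from fatty acid oxidation to the respiratory chain, rose by 3.11, from 4.49, 6.66 and 13.6 FPKM to 63, 84 and 71.1 FPKM. Of 19 genes of mitochondrial import 15 rose and 0 fell in limma's test (at an unadjusted p below 0.05, 0 fell), and under quantile normalization 9 rose and 2 fell. Tomm5, a small subunit of the outer membrane channel, rose by 3.93, from 3.19, 13 and 8.1 FPKM to 131, 128 and 109 FPKM.

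Among genes with a mean of at least 10 FPKM in the group, 62 of 5829 in SSC and 14 of 5735 in SSCiPSC spread at least 4-fold over the replicates of their group. Of the 62, 46 were highest in SSC replicate 3, and of the 14, 10 were highest in SSCiPSC replicate 1 and 10 lowest in SSCiPSC replicate 2. By chromosome, the median log2 fold change ran from -0.12 on chromosome 1 to 0.33 on chromosome 14 among the autosomes, and on the X chromosome, with 403 genes tested, 28.0% rose and 36.2% fell.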
